A study of Mus musculus with 27 samples.

Results

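The annexins and the S100 proteins are both families of calcium-responsive proteins, and their genes were taken from the deposited bulk RNA-seq table by name: every row named Anxa or S100a with a number, or S100b, S100g, S100p or S100z. The rule found 28 genes, 12 annexins and 16 S100 genes, among 21848 genes in the table. It used names only, so no value decided which genes of the families entered. The families and other lists were chosen with earlier results of these data known.

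The 27 libraries, all labelled C57BL/6, came from liver cells of adult mice and fell into 9 groups of 3. Freshly isolated hepatocytes were compared with hepatocyte organoids (HepOrgs) grown from wild-type hepatocytes in Matrigel, at passage 2, for 1 week (7 days) or 2 weeks (14 days). HepOrgs were kept in HM-Wnt, an expansion medium with gastrin, nicotinamide, the growth factors EGF, HGF, FGF7 and FGF10, RSPO1 conditioned medium, the GSK3 inhibitor CHIR and the TGF-beta receptor inhibitor A83-01, or were moved to MM, which has none of these. Both media share the basal medium, Wnt conditioned medium and a ROCK inhibitor. Periportal assembloids in MM joined 10 HepOrgs with 1000 cholangiocytes and either 250 (homeostatic) or 2500 (fibrotic-like) portal mesenchymal cells, and were collected after 1 week or 2.5 weeks (18 days). The cholangiocytes came from passaged organoids of mice with a nuclear tdTomato reporter and the mesenchyme from cells sorted for PDGFRα-H2B-GFP and SCA1. Stray cholangiocyte organoids and mesenchyme were picked by hand out of the HepOrg cultures up to passage 2, as the methods state. A HepOrg library can therefore hold such cells, in an amount not measured in these libraries. In the paper's flow cytometry, EpCAM+ cells made up a substantial share of single cells from HepOrg cultures. Their share of events in the hepatocyte isolation was far smaller. The part of such cells in the differences between HepOrgs and fresh hepatocytes was not tested. Replicate 3 of the fresh hepatocytes is titled WT although its genotype label reads MDR2-het. Nothing in the labels says whether replicates came from separate animals, so p-values measure the spread between these libraries.

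Annexins bind acidic phospholipids when calcium rises and so organise membrane domains, vesicle traffic and the repair of torn plasma membrane. S100 proteins are small EF-hand proteins that change shape on binding calcium and then dock onto partners, annexins among them. S100a10 is the exception that needs no calcium, and it joins Anxa2 in a complex under the plasma membrane that also binds plasminogen and its activator. In liver, both families are known to be more abundant in bile duct epithelium, mesenchyme and leukocytes than in resting hepatocytes, with S100a1 and Anxa6 among the members that hepatocytes do use.

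The S100 genes lie close together. In GRCm39, with GENCODE M39 positions, 13 of the 16 were on chromosome 3, 11 of them within 187 kb from S100a13 to S100a9 and S100a11 and S100a10 a further 2.81 Mb along, whereas the annexins were spread over 9 chromosomes. Promoters were read for all 28 genes from 250 bases before to 50 bases after the start of the Ensembl canonical transcript, and searched on both strands for the AP-1 motif TGANTCA and the TEAD motif GGAATG. The 3 windows below belong to members with the steepest differences between HepOrgs and fresh hepatocytes, and are shown because Anxa2 and S100a11 hold an AP-1 match, in capitals, and S100a6 does not. The AP-1 match was 32 bases before the start of Anxa2 (chr9:69360652-69360951, plus strand) and 10 bases before that of S100a11 (chr3:93427427-93427726, plus strand). The S100a6 window is chr3:90519890-90520189, plus strand.
Anxa2: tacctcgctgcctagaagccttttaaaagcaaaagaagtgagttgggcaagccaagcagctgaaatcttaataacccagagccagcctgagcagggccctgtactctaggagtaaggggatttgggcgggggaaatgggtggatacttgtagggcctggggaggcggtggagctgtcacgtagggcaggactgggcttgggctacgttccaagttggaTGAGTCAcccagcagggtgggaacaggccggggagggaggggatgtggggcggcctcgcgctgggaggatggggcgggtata
S100a11: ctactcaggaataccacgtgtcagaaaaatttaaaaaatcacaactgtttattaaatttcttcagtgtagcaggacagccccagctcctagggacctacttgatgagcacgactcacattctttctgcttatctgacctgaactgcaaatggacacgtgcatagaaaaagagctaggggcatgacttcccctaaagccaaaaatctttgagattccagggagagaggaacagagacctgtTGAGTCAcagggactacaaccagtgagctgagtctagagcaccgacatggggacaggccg
S100a6: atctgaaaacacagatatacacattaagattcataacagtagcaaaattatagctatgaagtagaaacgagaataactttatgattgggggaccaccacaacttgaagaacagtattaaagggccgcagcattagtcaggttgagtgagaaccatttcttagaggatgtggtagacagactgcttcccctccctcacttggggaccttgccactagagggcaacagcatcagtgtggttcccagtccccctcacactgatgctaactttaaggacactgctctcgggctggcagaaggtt
The AP-1 letters were found in 3 of 28 member promoters (Anxa10 is the other one) against 7.15% of all 21616 promoters read, and the TEAD letters in 4 (Anxa9, S100a2, S100a3 and S100z) against 14%. No member held both. A match is a run of letters, and binding was not measured here.

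Levels are given as TMM-normalised CPM (reads of a gene scaled to a common library size) over all 27 libraries, and tests are edgeR's quasi-likelihood test on the deposited counts, adjusted by Benjamini-Hochberg over all genes of a comparison, with 0.05 as the threshold. The total count per library was 30289364 to 65345685. Of the 28 members, 16 had enough counts to be tested in every comparison, 22 in the assembloids, and 6 in none. Anxa8 and S100g had no read in any library, and S100a2, S100a3, S100a5, S100z and S100a8 stayed at or below 58 counts in each.

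Cell markers frame what follows. Summed over 7 hepatocyte markers, fresh hepatocytes had 49356 to 80181 CPM and HepOrgs 10703 to 41666 CPM. Endothelial markers summed to 41.3 to 198 CPM in fresh hepatocytes and at most 2.33 CPM in HepOrgs, and macrophage and leukocyte markers to 42.4 to 425 CPM and 7.52 to 71.3 CPM in HepOrgs. Of the 8 macrophage and leukocyte markers, 7 were tested, of which 3 to 6 were lower and 1, Cd68, was higher in each HepOrg group than in fresh hepatocytes. Cd68, a lysosomal macrophage gene, had 1.49 to 8.36 CPM in fresh hepatocytes and 6.17 to 44.6 CPM in HepOrgs, whereas Clec4f, a Kupffer cell gene, had 18.6 to 131 CPM and 0. Itgam was at 0 in both. Cholangiocyte markers summed to 11.6 to 143 CPM in fresh hepatocytes and 3532 to 15479 CPM in HepOrgs, nearly all of it Spp1, since without Spp1 the sums were 8.37 to 25 and 25 to 99.5 CPM. In assembloids the same 5 markers without Spp1 reached 51.9 to 4711 CPM. Sox9 alone had 7.49 to 22.9 CPM in fresh hepatocytes. Krt7, Krt19 and Epcam, a sum chosen after the values were seen, had 0 to 2.06 CPM there and 3.29 to 74.6 CPM in HepOrgs. Portal mesenchyme markers summed to 21.7 to 149 CPM in fresh hepatocytes, 2.67 to 64.3 CPM in HM-Wnt HepOrgs and 17 to 238 CPM in MM HepOrgs. Replicate 2 of the homeostatic 1-week assembloids stood furthest apart, since it had 8463 genes with a count, against 14014 to 16016 in the other 26 libraries, and 902 CPM of hepatocyte markers, against 13982 and 25339 in its own group. Fibrotic-like replicate 3 at 1 week also had few hepatocyte markers, 1491 CPM against 9670 and 13857 CPM in its group, with 3782 CPM of the cholangiocyte markers without Spp1, against 848 and 240 CPM. Fibrotic-like replicate 2 at 2.5 weeks had 6470 CPM against 20138 and 24840 CPM, and 3182 CPM against 551 and 634 CPM. Results that rest on these 3 libraries are given with and without them. In bulk RNA, fewer cells of a type and less RNA per cell cannot be told apart.

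**Figure D1:**
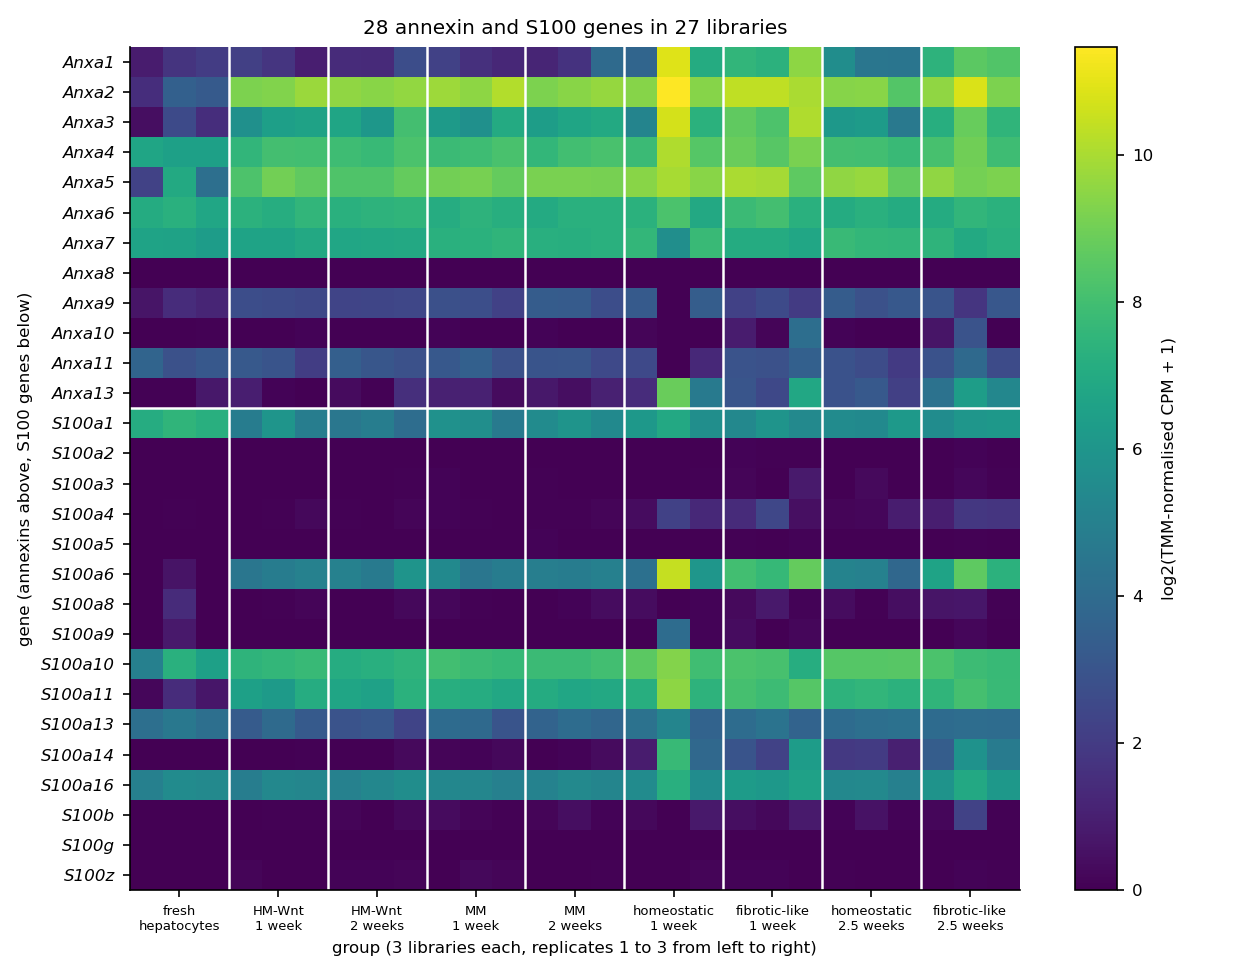
Heat map of the 28 genes (rows) in 27 libraries (columns, 3 per group), coloured by log2 of TMM-normalised CPM plus 1. Anxa2, Anxa3, S100a6 and S100a11 are each darker in the 3 fresh hepatocyte libraries than in any of the 12 HepOrg libraries. The second homeostatic 1-week library is brightest for Anxa1, Anxa2, Anxa3 and S100a6.

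The first comparison asked how the families differ between hepatocytes taken from the liver and HepOrgs grown from them. Summed annexins were 321 to 493 CPM in fresh hepatocytes and 1414 to 2310 CPM in HepOrgs, without overlap, while summed S100 genes overlapped at 214 to 408 CPM and 338 to 548 CPM. By gene, 7 members were higher in all 4 HepOrg groups (Anxa2, Anxa3, Anxa4, Anxa5, Anxa9, S100a6 and S100a11), and only S100a1 was lower in all 4.

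Anxa2, the membrane-organising partner of S100a10, was close to absent from fresh hepatocytes and abundant in HepOrgs. The fresh hepatocyte libraries had 1.81, 10.3 and 8.4 CPM. HM-Wnt HepOrgs had 582, 624 and 858 CPM at 1 week and 769, 690 and 790 CPM at 2 weeks, and MM HepOrgs 875, 731 and 1122 CPM and 594, 694 and 804 CPM. Every HepOrg library was far above every fresh one. The log2 fold change was 6.60 ± 0.54 (SE, n = 3 libraries per group, edgeR adjusted p = 8.83e-07) in HM-Wnt at 1 week, 6.74 ± 0.54 at 2 weeks (adjusted p = 7.07e-07), 7.03 ± 0.55 in MM at 1 week (adjusted p = 8.71e-07) and 6.68 ± 0.54 at 2 weeks (adjusted p = 1.24e-06). All 14 alternative settings kept these 4 calls.

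S100a10 was already present in fresh hepatocytes, at 30.5, 153 and 90.4 CPM. It had 174, 193 and 208 CPM in HM-Wnt at 1 week, 137, 150 and 173 CPM at 2 weeks, and 251, 222 and 206 CPM and 222, 224 and 251 CPM in MM. Only the HM-Wnt 2-week group overlapped the fresh libraries. The log2 fold change was 1.02 ± 0.38 (edgeR adjusted p = 0.0378) and 0.71 ± 0.38 (adjusted p = 0.128) in HM-Wnt, and 1.30 ± 0.38 (adjusted p = 0.0149) and 1.36 ± 0.38 (adjusted p = 0.0124) in MM. The HM-Wnt 1-week call was kept in 8 of 14 alternatives and was lost without fresh replicate 3 (adjusted p = 0.0803) or any 1 of its own libraries (0.0523 to 0.0873). All 3 calls were lost when only the groups compared entered the fit (adjusted p 0.134, 0.0862 and 0.0783), and without fresh replicate 2 all 4 comparisons passed, with 1.31 (adjusted p = 0.00596) for HM-Wnt at 2 weeks. Per kilobase of exon, the ratio of Anxa2 to S100a10 was 0.082, 0.093 and 0.128 in fresh hepatocytes and lay between 3.69 and 7.72 in the 12 HepOrg libraries, so the balance of the pair did not overlap between fresh and cultured cells.

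S100a11 and S100a6, which bind annexins at membranes, went from near absence to moderate levels. S100a11 had 0.133, 1.75 and 0.639 CPM in fresh hepatocytes and 75.8 to 161 CPM across HepOrgs, with log2 fold changes of 6.85 to 7.29 over the 4 comparisons (SE at most 0.62, edgeR adjusted p at most 2.12e-06). S100a6 had 0, 0.525 and 0.0304 CPM, from 0, 12 and 1 reads, and 21.6 to 59.8 CPM in HepOrgs. Its log2 fold changes of 7.01 to 7.54 (SE at most 0.72, adjusted p at most 6.77e-06) rest on those few reads. Both genes kept their calls in the 13 alternatives in which they were tested, though on log2(TPM + 1), which understates low genes, the S100a6 values were 3.91 to 4.61.

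Among the other annexins, Anxa3 had 0.346, 5.03 and 1.83 CPM in fresh hepatocytes and 52.9 to 262 CPM in HepOrgs (log2 fold change 5.01 to 5.89, SE at most 0.80, edgeR adjusted p at most 0.000185, and 3.11 to 4.03 on log2(TPM + 1)). Anxa5, known for binding exposed phosphatidylserine, had 3.78, 124 and 17.4 CPM in fresh hepatocytes and 307 to 580 CPM in HepOrgs. Its fresh libraries were widely spread, and replicate 2, the highest, also had the most macrophage and leukocyte marker RNA (425 CPM, against 42.4 and 152) and cholangiocyte marker RNA (143 CPM, against 11.6 and 30.1). The part of other cells in that value was not tested. The log2 fold change of Anxa5 was 2.85 to 3.57 (SE at most 0.84, adjusted p at most 0.0102), was 5.03 to 5.77 without that library, and was not called when only the groups compared were fitted (adjusted p 0.0507 to 0.0763).

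Anxa4 and Anxa9 had smaller log2 fold changes. Anxa4 had 105, 90.3 and 90.8 CPM in fresh hepatocytes and 189 to 297 CPM in HepOrgs, a log2 fold change of 1.25 to 1.38 (SE 0.19, edgeR adjusted p at most 0.000141). Anxa9, an annexin that does not bind calcium in the usual way, had 0.559, 1.71 and 1.28 CPM and 3.67 to 9.18 CPM (log2 fold change 1.81 to 2.72, SE at most 0.36, adjusted p at most 0.000906), and part of its sequence overlaps Mindy1 on the other strand. Its calls were lost with all 27 libraries in 1 fit. Anxa7, which was 80.9 to 99.4 CPM in fresh hepatocytes, passed the threshold in MM, higher by 0.82 ± 0.13 at 1 week (adjusted p = 0.000326) and 0.71 ± 0.13 at 2 weeks (adjusted p = 0.000963), and not in HM-Wnt. It too was not called with all 27 libraries in 1 fit. Anxa6, with a median of 133 CPM in fresh hepatocytes and 130 to 189 CPM in HepOrgs, did not pass the threshold, nor did Anxa1, Anxa11, Anxa13 and S100a16.

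S100a1, a calcium sensor best known from heart muscle, went the other way. Fresh hepatocytes had 135, 182 and 152 CPM, HM-Wnt HepOrgs 27.1, 62.5 and 28 CPM at 1 week and 22.3, 28.4 and 16.4 CPM at 2 weeks, and MM HepOrgs 54.8, 50.1 and 25.5 CPM and 44.9, 59.4 and 43.2 CPM. No HepOrg library reached the lowest fresh one. The log2 fold change was -2.05 ± 0.36 (edgeR adjusted p = 0.00044), -2.84 ± 0.37 (adjusted p = 3.89e-05), -1.86 ± 0.36 (adjusted p = 0.00114) and -1.65 ± 0.36 (adjusted p = 0.00249). S100a13, which helps release growth factors that lack a signal peptide, overlaps S100a1 on the opposite strand, and since the libraries do not mark strand the reads of the pair cannot be told apart there. It had 17, 23.1 and 17.5 CPM in fresh hepatocytes and fell by 0.91 ± 0.32 (adjusted p = 0.0323) and 1.67 ± 0.33 (adjusted p = 0.000918) on the log2 scale in HM-Wnt, and did not pass in MM. The HM-Wnt 1-week call was kept in 7 of 14 alternatives and was lost without fresh replicate 2 or 3 or HM-Wnt replicate 1 or 3 (adjusted p 0.0529 to 0.112).

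By count, in HM-Wnt at 1 week 8 of 16 members tested were higher and 2 lower, where 24.9% of all 13396 genes were higher and 24.8% lower. At 2 weeks 7 were higher and 2 lower (all genes 26.1% and 25.7%). In MM, 9 were higher and 1 lower at 1 week (21.5% and 21.3%) and again at 2 weeks (19.7% and 20%). The median log2 fold change of the members tested was 0.66, 1.02, 1.33 and 1.37, where that of all genes lay between -0.01 and 0.03. These 4 comparisons share the same fresh libraries. On the authors' TPM values, with log2(TPM + 1), the median of all genes moved up by 0.37 to 0.64 and 76.3 to 84.5% of called genes were higher, against 49.7 to 50.4% on counts. In HM-Wnt at 1 week 10 members were then higher and 1 lower, where 5410 of 9671 genes were called, 4126 of them higher.

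**Figure D2:**
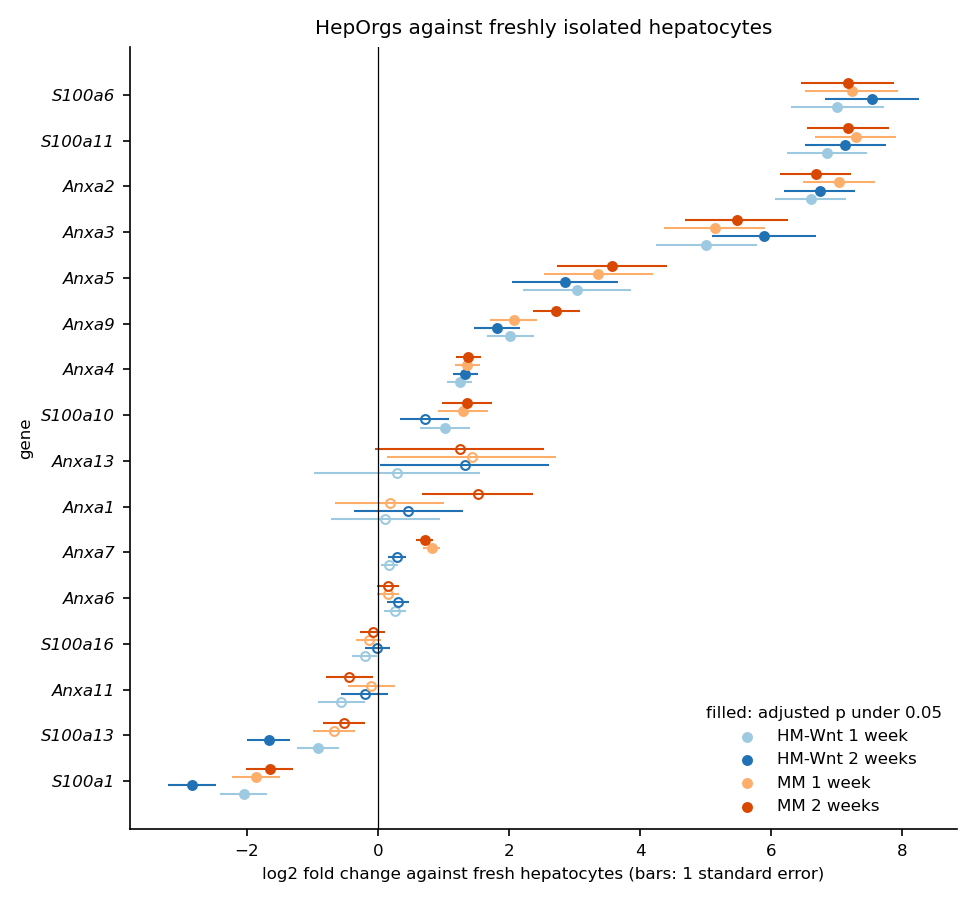
Log2 fold change of the 16 members tested, HepOrg groups against fresh hepatocytes (bars, 1 SE, filled points past the threshold, 3 libraries per group). S100a6, S100a11, Anxa2 and Anxa3 lie furthest to the right in all 4 comparisons, and S100a1 lies left of 0 in all 4.

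**Figure D3:**
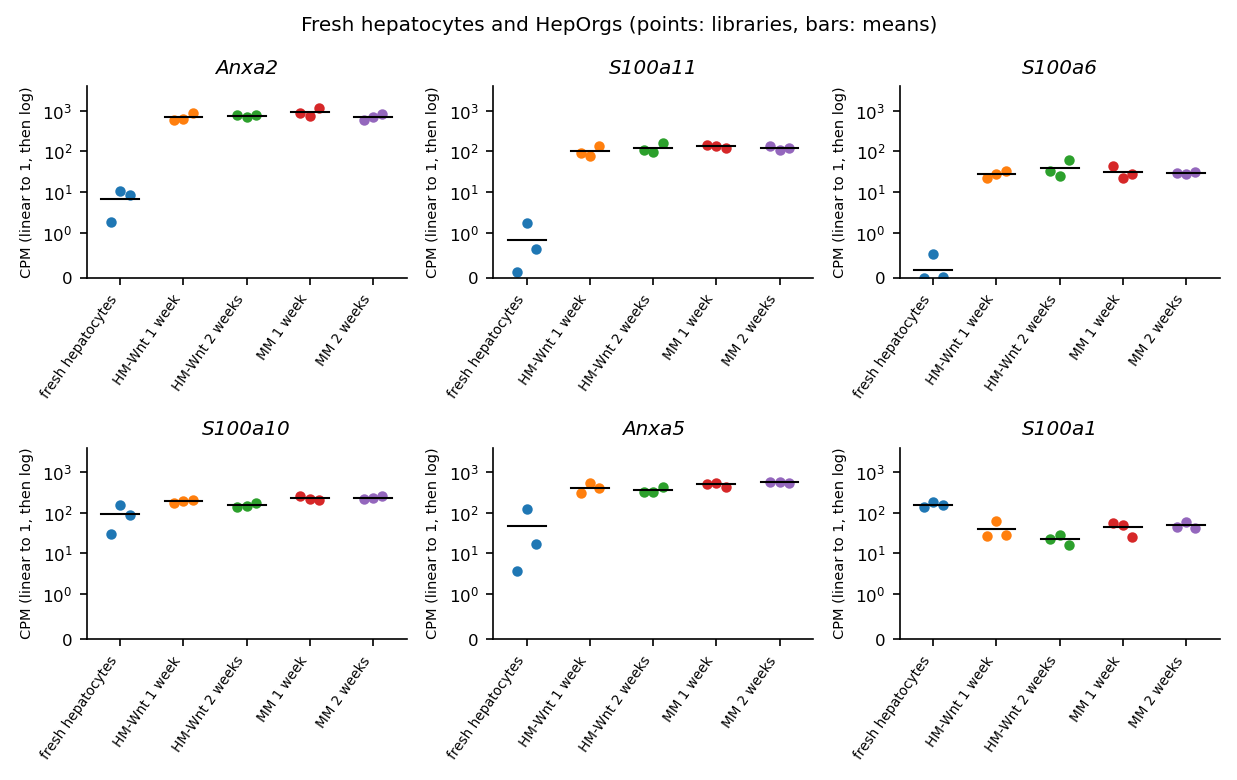
CPM of 6 members in fresh hepatocytes and the 4 HepOrg groups, one point per library with a bar at the mean, on an axis that is linear up to 1 and logarithmic above. S100a11 goes from at most 1.75 CPM to at least 75.8 CPM, while S100a10 is already at 30.5 to 153 CPM in the fresh libraries and S100a1 is lower in HepOrgs.

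The make-up of the family turned over as well. Per kilobase of exon, S100a1 made up 38.9% of the members' summed mean level in fresh hepatocytes, followed by Anxa6 (14.1%), Anxa4 (11.1%), Anxa7 (10.2%) and S100a10 (9.43%). In each HepOrg group Anxa2 came first, with 32.3 to 38.9%, and Anxa5 or S100a11 second. S100a1 was not among the first 6 members in any HepOrg group. The shares depend on annotated exon length, which was 6944 bases for S100a10 and 2895 for S100a1.

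The media were compared next, first without a block. At 1 week Anxa7 was the only member past the threshold of 16 tested, higher in MM than in HM-Wnt by a log2 fold change of 0.64 ± 0.13 (edgeR adjusted p = 0.0301), with 155, 158 and 183 CPM against 99.7, 100 and 122 CPM, which do not overlap. Among all genes 1.76% were higher and 1.22% lower. Anxa2 and S100a10 had values of 0.41 ± 0.20 (adjusted p = 0.251) and 0.26 ± 0.14 (adjusted p = 0.306). At 2 weeks 4 members were higher in MM, none lower, where 6.84% of genes were higher and 4.61% lower. S100a10 was higher by 0.66 ± 0.15 (adjusted p = 0.016), Anxa9 by 0.93 ± 0.25 (adjusted p = 0.0387), Anxa5 by 0.74 ± 0.21 (adjusted p = 0.0419) and S100a13 by 1.17 ± 0.34 (adjusted p = 0.0463). For S100a10 the libraries were 222, 224 and 251 CPM in MM and 137, 150 and 173 CPM in HM-Wnt, and for Anxa5 580, 577 and 547 CPM against 315, 318 and 432 CPM. Anxa2 did not follow its partner, at -0.05 ± 0.20 (adjusted p = 0.912).

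With the replicate number as a block (numbers that pair the HepOrg libraries, as described with the processing), 6 members passed at 2 weeks, the same 4 together with Anxa7 at 0.43 ± 0.12 (adjusted p = 0.03) and S100a1 at 1.22 ± 0.23 (adjusted p = 0.00538). Among all 12989 genes the block called 2544, 1427 of them higher, against 889 higher and 599 lower without it. At 1 week the block called 1232 genes, 730 of them higher, and the members among them are not given here. The counts depend on single libraries: leaving out any 1 of the 6 libraries left 0 to 1 member at 1 week and 0 to 2 at 2 weeks. At 1 week the call was lost without HM-Wnt replicate 1 or 2 or MM replicate 1 or 2, and at 2 weeks every one of the 6 libraries, left out, lowered the count: to 0 for HM-Wnt replicate 1, MM replicate 1 or MM replicate 2, to 1 for HM-Wnt replicate 2, and to 2 for HM-Wnt replicate 3 or MM replicate 3. The calls of both weeks were lost with all 27 libraries in 1 fit, which called 0 and 7 of 14655 genes. The share of all genes in the fits leaving out 1 library is not given here.

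Over time in culture no member passed the threshold in the fits without a block. Between 2 weeks and 1 week edgeR called 0 of 16 members in HM-Wnt (1 at an unadjusted p under 0.05, S100a13) and 0 in MM (1, Anxa9), and DESeq2 and limma also called 0. Among all genes 0% and 0.0154% were called. The difference between media in the change over time gave 0 members (1 unadjusted, Anxa9) and 0% of genes. With the replicate number as a block, 0 of 12989 genes were called in HM-Wnt, 3 in MM and 0 for this difference. Whether those 3 hold a member is not given here. Anxa2 had log2 fold changes of 0.13 ± 0.20 in HM-Wnt (adjusted p = 0.808) and -0.33 ± 0.20 in MM (adjusted p = 0.668).

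The assembloids asked what cholangiocytes and portal mesenchyme add to HepOrgs, and what a 10-fold larger mesenchymal seeding changes. Some members had assembloid libraries far above their HepOrg levels: Anxa1, the glucocorticoid-induced annexin known for limiting inflammation, Anxa13, an annexin of polarised epithelium, S100a14, an epithelial S100 protein, and S100a6, which HepOrgs already used at a moderate level. In MM HepOrgs at 1 week Anxa1 had 3.65, 1.97 and 1.44 CPM. Fibrotic-like assembloids had 189, 166 and 734 CPM at 1 week and 169, 385 and 327 CPM at 2.5 weeks, and homeostatic ones 12.5, 1897 and 132 CPM and 47.9, 21.8 and 21.1 CPM. The fibrotic-like and homeostatic libraries did not overlap at 2.5 weeks, and at 1 week they did.

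S100a14 had 6, 3 and 9 reads in the MM HepOrg libraries and none in fresh hepatocytes. It had 6.8, 3.81 and 80.7 CPM in fibrotic-like assembloids at 1 week and 9.41, 55.7 and 26.2 CPM at 2.5 weeks, and 0.854, 211 and 13.6 CPM and 2.72, 2.96 and 1.02 CPM in homeostatic ones. Anxa13 ranked the assembloid libraries of each group in the same order, with 1.05, 1.08 and 0.263 CPM in MM HepOrgs, 7.08, 4.61 and 115 CPM and 19.1, 81.8 and 38.3 CPM in fibrotic-like assembloids, and 1.76, 465 and 24.3 CPM and 6.33, 8.13 and 3.5 CPM in homeostatic ones. S100a6 had 43.2, 21.7 and 27.6 CPM in MM HepOrgs and 255, 202 and 432 CPM in fibrotic-like assembloids at 1 week, and 98.9, 395 and 162 CPM at 2.5 weeks. Homeostatic libraries had 17.9, 1429 and 63.7 CPM at 1 week and 34.4, 32.4 and 13.3 CPM at 2.5 weeks, so they overlapped the fibrotic-like ones at 1 week and the MM HepOrgs at both times.

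None of these differences passed the threshold in edgeR's fits as planned, which include the 3 libraries that stand apart. For fibrotic-like assembloids against MM HepOrgs at 1 week edgeR called 0 of 21 members and 0% of genes (5 members at an unadjusted p under 0.05, median member log2 fold change 1.05 against 0.09 for all genes). S100a4, S100a8, S100a9, S100a14 and S100b were too low to test among HepOrgs alone. They entered this fit and its median once assembloid libraries were added, so the filter favoured a higher direction. DESeq2 called 4 members, where 731 of 13288 genes were called. By library, 9 members had no overlap upward and 1, Anxa7, downward, where 27.5% and 22.9% of genes had none. Without replicate 2 of the homeostatic 1-week group, which is in neither group compared but shares the estimate of spread, 9 of 22 members were called, all higher, where 23% of genes were called in either direction. They were Anxa1 at 7.19 ± 1.14 (adjusted p = 0.0128), S100a16 at 1.11 ± 0.18 (adjusted p = 0.0129), S100a6 at 3.21 ± 0.54 (adjusted p = 0.0134), S100a11 at 1.04 ± 0.21 (adjusted p = 0.019) and S100a14 at 7.50 ± 1.65 (adjusted p = 0.0225), with Anxa3, S100a4, Anxa13 and Anxa10 at adjusted p of 0.0316 to 0.0486. S100a14, S100a4 and Anxa10 passed the filter here and in the fits below through assembloid libraries only, so their direction was set in advance. That choice was made after the values had been seen. A fit of only these 6 libraries also called 9 (25.5% of genes), 8 of them the same, with Anxa4 in place of Anxa10. Leaving out fibrotic-like replicate 3 alone, 0 were called. Leaving out both it and the homeostatic library, 7 of 20 were called, all higher, where 22.2% of genes were called (Anxa1 at 6.15 ± 0.95, adjusted p = 0.0124, with S100a16, S100a6, S100a4, S100a11, S100a14 and Anxa5), and Anxa3 and Anxa13 had adjusted p of 0.0559 and 0.0868. Only the groups compared, without it, gave 11 of 20, where 29.7% of genes were called. In all of these Anxa2 was not called, at 0.40 ± 0.61 (adjusted p = 0.964) in the fit of the 9 libraries, with 1323, 1330 and 1018 CPM against 875, 731 and 1122 CPM. S100a10 had 0.05 ± 0.45 (adjusted p = 0.999).

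Homeostatic assembloids against MM HepOrgs gave 0 of 21 members by edgeR (0% of genes, 9 members unadjusted), 4 by DESeq2 (261 of 13288 genes), and 0 by edgeR without replicate 2. Outside that library the 2 homeostatic libraries had 661 and 662 CPM of Anxa2, against 731 to 1122 CPM in MM HepOrgs, and its own 2838 CPM turned the log2 fold change from -0.45 without it to 0.68 ± 0.61 with it (adjusted p = 0.991).

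Between the ratios, edgeR called 0 of 22 members at 1 week and at 2.5 weeks, and 0% of genes at either time. At 1 week 2 members had an unadjusted p under 0.05, and the median member log2 fold change was -0.33 against 0.20 for all genes. DESeq2 called 1 member (Anxa10), where 867 of 13866 genes were called. Anxa10 had at most 4 reads in homeostatic libraries at 1 week and 5 at 2.5 weeks. It passed the filter through fibrotic-like libraries, so its direction was set in advance. Without replicate 2 of the homeostatic group Anxa7, which was lower in fibrotic-like assembloids, was called at -0.76 ± 0.20 (adjusted p = 0.0481), where 8.01% of genes were called. Its libraries were 132, 134 and 108 CPM against 192 and 216 CPM, and 49.5 CPM in the library left out. Leaving out fibrotic-like replicate 3 as well, edgeR called 0 members, where 1.91% of genes were called, and Anxa7 had -0.67 ± 0.21 (adjusted p = 0.0845). Without that replicate alone 0 were called.

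At 2.5 weeks 7 members had higher values in every fibrotic-like library than in any homeostatic one (Anxa1, Anxa3, Anxa13, S100a4, S100a6, S100a14 and S100a16) and 2 had lower ones (Anxa7 and S100a10), against 21.7% and 15.3% of all genes. In edgeR's fit of the 12 assembloid libraries 3 members had an unadjusted p under 0.05 (Anxa1, S100a6 and S100a16) and the median was 0.80 against 0.03 for all genes. DESeq2 also called 0, where 273 of 13866 genes were called. In a fit of only the 6 libraries of 2.5 weeks 4 members passed, all higher, where 5.53% of genes were called: Anxa1 at 3.28 ± 0.47 (adjusted p = 0.0153), S100a14 at 3.74 ± 0.73 (adjusted p = 0.0365), Anxa13 at 2.95 ± 0.58 (adjusted p = 0.0381) and S100a6 at 3.04 ± 0.61 (adjusted p = 0.0407). Without fibrotic-like replicate 2, where summed annexins were 4063 CPM against 2447 and 2287 CPM in its group, such a fit called 4 of 19 members, Anxa1 at 3.03 ± 0.44 (adjusted p = 0.0168), S100a6, Anxa13 and S100a14, where 4.51% of genes were called. The fit of the assembloids without it called 0 of 22. Without the homeostatic 1-week library that stands apart 0 members and 0.258% of genes were called. S100a10 had 345, 348 and 355 CPM in homeostatic and 297, 235 and 211 CPM in fibrotic-like assembloids, a log2 fold change of -0.53 ± 0.38 (adjusted p = 0.953), and Anxa2 had 667, 692 and 340 CPM and 759, 1782 and 592 CPM (0.84 ± 0.62, adjusted p = 0.963).

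**Figure D4:**
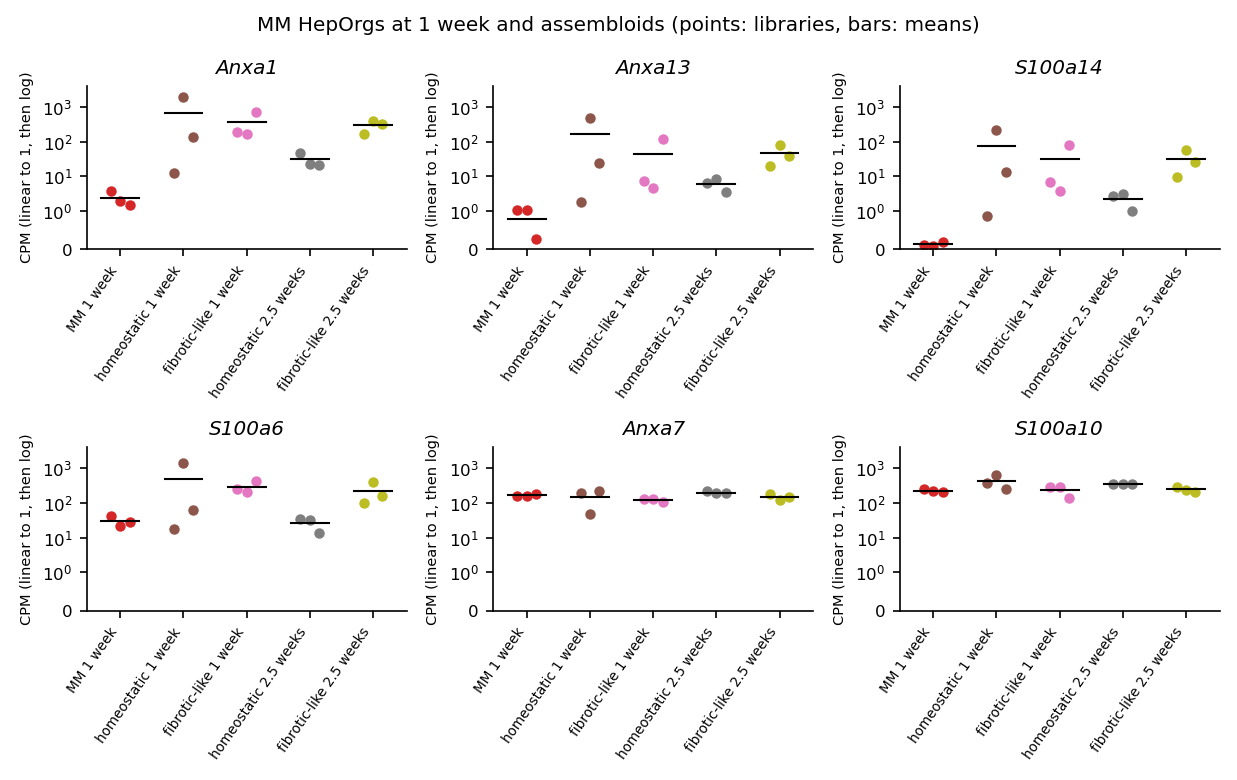
CPM of 6 members in MM HepOrgs at 1 week and the 4 assembloid groups, one point per library with a bar at the mean, on an axis that is linear up to 1 and logarithmic above. At 2.5 weeks Anxa1, Anxa13, S100a14 and S100a6 are higher in all 3 fibrotic-like libraries than in any homeostatic one, and Anxa7 and S100a10 are lower.

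Summed cell markers also differed between these groups. At 1 week the 9 portal mesenchyme markers summed to 65.9 to 238 CPM in MM HepOrgs and 290 to 6165 CPM in fibrotic-like assembloids, and the 5 cholangiocyte markers without Spp1 to 37.9 to 66.8 and 240 to 3782 CPM. At 2.5 weeks the mesenchyme markers summed to 170 to 246 CPM in homeostatic and 1341 to 5046 CPM in fibrotic-like assembloids, and the cholangiocyte markers without Spp1 to 98.1 to 187 and 551 to 3182 CPM, none of either list at 0. With Spp1 the cholangiocyte sums overlapped, at 6538 to 10197 and 6657 to 9188 CPM. Taking Krt7, Krt19 and Epcam, a sum chosen after the values were seen, the 3 assembloid libraries with the most had 4696 CPM (homeostatic 1 week, replicate 2), 3755 CPM (fibrotic-like 1 week, replicate 3) and 3120 CPM (fibrotic-like 2.5 weeks, replicate 2). Spp1, on the same marker list, went the other way, at 3172, 3647 and 5078 CPM in these 3 libraries, the lowest of each group. Sox9 did not follow the sum in the homeostatic 1-week group, where it had 13.1 to 15.3 CPM. The same 3 libraries, in the same order, had the most Anxa1 (1897, 734 and 385 CPM), S100a14 (211, 80.7 and 55.7 CPM), Anxa13 (465, 115 and 81.8 CPM) and S100a6 (1429, 432 and 395 CPM). S100a10 was at 657, 141 and 235 CPM in them, so it did not keep that order. In homeostatic replicates 1 to 3 at 1 week the mesenchyme markers summed to 119, 949 and 300 CPM. In fibrotic-like ones they summed to 2388, 6165 and 290 CPM at 1 week and 1341, 4458 and 5046 CPM at 2.5 weeks. At 1 week homeostatic replicate 2, the highest for these markers, had the most Anxa1, S100a14, Anxa13 and S100a6 in its group. Fibrotic-like replicate 3, the lowest, also had the most in its group. At 2.5 weeks fibrotic-like replicate 1, the lowest, had the least of each. The part of either cell type, or of cell make-up as a whole, in the differences was not tested.

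**Figure D5:**
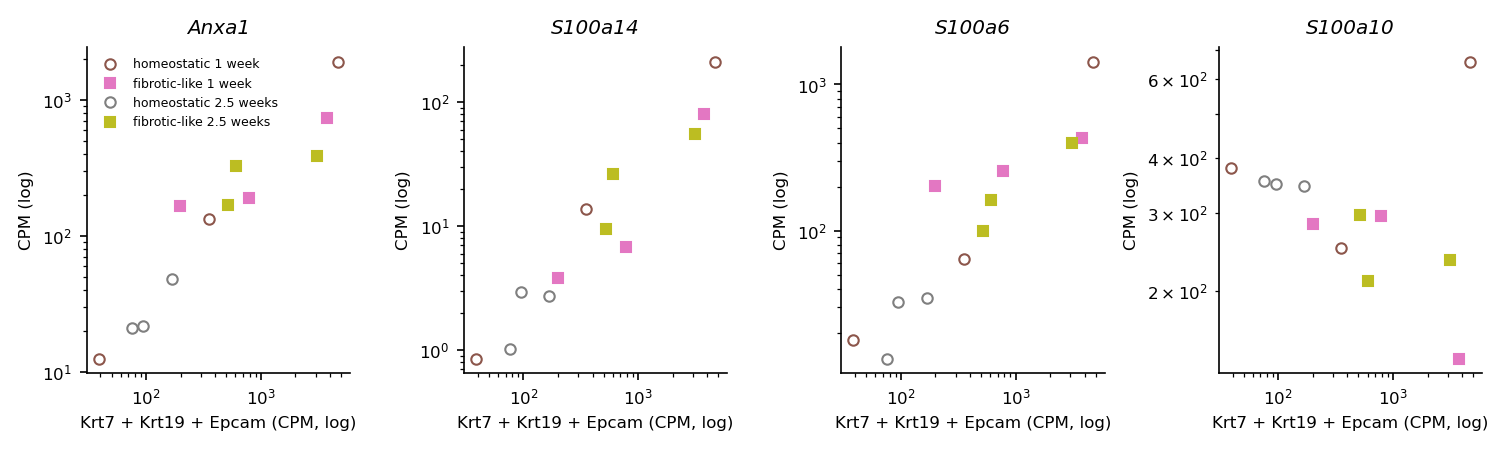
Each of the 12 assembloid libraries by its summed Krt7, Krt19 and Epcam level (x axis, CPM, log scale) and its level of Anxa1, S100a14, S100a6 or S100a10 (y axes, CPM, log scale), open circles homeostatic and filled squares fibrotic-like. The library at 4696 CPM of the markers is highest in all 4 panels, and the library at 38.6 CPM is lowest for Anxa1 (12.5 CPM) and S100a14 (0.854 CPM). The sum leaves out Spp1, Sox9 and Cftr of the cholangiocyte list, and Spp1 did not rise with it.

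Over time, edgeR called 0 of 22 members between 2.5 weeks and 1 week in homeostatic assembloids (8 unadjusted) and 0 in fibrotic-like ones (0 unadjusted), and 0 for the difference between them (1 unadjusted, Anxa1), with 0% of genes in each and 0 members by DESeq2. Without replicate 2 of the homeostatic 1-week group edgeR also called 0 in each, and likewise without either of the 2 fibrotic-like libraries in the comparisons that hold them. The median log2 fold change of the members was -0.79 in homeostatic assembloids, with 18 of 22 negative, against 0.27 for all genes, and -0.03 in fibrotic-like ones, against -0.01.

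The least used members had few reads in most libraries. Anxa10, a stomach annexin, had 1212 reads in fibrotic-like replicate 3 at 1 week and 351 in replicate 2 at 2.5 weeks, and at most 79 elsewhere. S100a4, a mesenchymal and leukocyte gene, had at most 8 reads in any HepOrg or fresh library, 29 to 287 in fibrotic-like assembloids, and 7 to 194 in homeostatic ones, and it is uncertain because the readthrough gene Gm42674 overlaps it on the same strand. S100a8 and S100a9, the calgranulins of neutrophils, had 37 and 17 reads in fresh replicate 2 and none in the other fresh libraries. S100a8 had a count in 21 of 27 libraries, the highest 48 reads in fibrotic-like replicate 2 at 1 week. S100a9 had a further 833 reads in replicate 2 of the homeostatic 1-week group, where S100a8 had 0 and the neutrophil markers summed to 0.0186 CPM. S100b reached 206 reads in 1 fibrotic-like library and at most 58 in the others.

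Of 18 receptors and partners of the families, 16 had enough counts with fresh hepatocytes, and 7 or 8 were higher in each HepOrg group and 1 to 3 lower, with a median log2 fold change of 0.40 to 0.90. Among all genes 19.7 to 26.1% were higher and 20 to 25.7% lower in these comparisons, with medians of -0.01 to 0.03. The genes named are those tied most directly to the pair and to secreted S100 proteins. Plat, the plasminogen activator, was higher in all 4 by a log2 fold change of 8.44 to 9.21 (SE at most 0.83, edgeR adjusted p at most 5.00e-06). Plg, the plasminogen that hepatocytes secrete, fell by 2.12 to 2.43 (SE at most 0.55, adjusted p at most 0.00673). Ager, the receptor for secreted S100 proteins, was higher by 2.64 to 4.94 (SE at most 0.73, adjusted p at most 0.00425) but stayed at or below 3.67 CPM in HepOrgs. The penta-EF-hand proteins, calcium-binding proteins of a neighbouring family, gave 0, 2, 1 and 2 higher of 6 and 0 lower in the same comparisons, with medians of 0.37 to 0.51. With 6 genes, these higher counts cannot be set apart from the shares of all genes. Between the media 1 partner at 1 week and 2 at 2 weeks were higher in MM and 1 was lower at 2 weeks, of 15 tested. Among all genes 1.76% were higher and 1.22% lower at 1 week, and 6.84% and 4.61% at 2 weeks. In the assembloid comparisons edgeR called no gene of either list, and 0% of all genes.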

How the data were processed

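RNA from fresh hepatocytes, HepOrgs and assembloids was made into Nextera libraries that do not mark strand. Per the methods and labels, the authors aligned paired reads with STAR to GRCm39 with Ensembl annotation and counted them per gene with featureCounts. The deposited table holds raw counts per gene and the authors' TPM (a length-scaled share of each library) in separate columns, with a gene length that is within 5% of the whole GENCODE span for 80.8% of genes. The table has 37 libraries, of which 27 were used and 10 are not analysed here. Levels per kilobase in the report therefore use exon lengths from GENCODE M39, as the union of exons over all annotated transcripts. These were 5029 bases for Anxa2, 6944 for S100a10, 2673 for S100a11 and 2895 for S100a1. Ranks, shares and the size of the ratio of Anxa2 to S100a10 depend on them, while differences of 1 gene or ratio between groups do not. The 2 reporter rows (0.00691% of counts) were left out. Total counts were 30289364 to 65345685 per library, and standard errors and p-values come from the spread between libraries.

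Counts were tested with edgeR 4.0.16 in R 4.3.3 (TMM, filterByExpr with a minimum count of 10 and total of 15, quasi-likelihood test, prior count 2, Benjamini-Hochberg threshold 0.05). Fresh hepatocytes and HepOrgs were fitted together (15 libraries), HepOrgs alone for media and time (12), assembloids alone (12), and 1-week assembloids with 1-week MM HepOrgs (9). Alternatives were DESeq2 1.42.0, RLE size factors, a stricter filter (10 or more counts in each library) or none, limma 3.58.1 on log2(TPM + 1) and log2(TPM + 0.1) with TPM of at least 1 in 3 libraries, fits of the compared groups alone or of all 27 libraries together, a replicate block and leaving out each library, with 4 further fits without assembloid libraries that stand apart added after the data were seen. The scripts were tested on simulated data. Libraries with the same replicate number deviated together among HepOrgs, with a correlation over 0.1 in 18 of 18 pairs (0.127 to 0.503) against 2 of 36 pairs with different numbers, so there the numbers were taken to pair the libraries. No label explains the numbers. Elsewhere the libraries share only a number.

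The genes and lists were chosen with earlier results of these data known. Any member could be named with its level. Fold changes were given for Anxa2 and S100a10 and up to 8 others past the threshold, by adjusted p, and at most 3 genes of another list. Promoters and overlaps were read from GRCm39 with GENCODE M39.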

Additional observations from a re-analysis of the deposited data

How the results depend on the processing

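Over 68 gene results, 953 of 1046 values under an alternative kept their direction and side of the threshold, 63 lost the call, 3 gained one and 27 changed sign. Of 257 counts of called members, 228 stayed within 1.5 times. The cause of the changes was not tested. MM against HM-Wnt at 1 week (1 member) gave 0 with all 27 libraries, with limma at either pseudocount and with only the groups compared, and 0 to 1 leaving out a library. Among all genes these fits called 0 of 14655 with all 27 libraries, 293 and 342 of 9439 with limma on log2(TPM + 0.1) and log2(TPM + 1), and 30 of 12590 with only the groups compared. Where a fit leaving out a library has no share of all genes beside it, its member count cannot be set against that share. At 2 weeks (4 members) it gave 0 with all 27 libraries, 1 with limma on log2(TPM + 0.1), 2 on log2(TPM + 1), and 0 to 2 leaving out a library. Among all genes, all 27 libraries gave 7 of 14655, and limma 1208 and 1247 of 9439. Among called genes at 2 weeks the share higher in MM was 59.7% on counts and 31.3% on log2(TPM + 1), and at 1 week 59.2% and 76.9%.

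In the assembloids, where 0 members were called, the fibrotic-like against homeostatic comparison gave 1 by DESeq2 at 1 week (0 to 1 leaving out a library) and 4 with only the groups compared at 2.5 weeks, with or without fibrotic-like replicate 2. Among all genes DESeq2 called 867 of 13866 at 1 week. At 2.5 weeks the groups compared gave 739 of 13355 genes, and 612 of 13561 without that replicate. Homeostatic assembloids against MM HepOrgs gave 4 by DESeq2 (261 of 13288 genes) and 2 with all 27 libraries (197 of 14655 genes). Fibrotic-like assembloids against MM HepOrgs gave 4 by DESeq2, 3 with all 27 libraries, 9 with only the groups compared (11 without fibrotic-like replicate 3), and 0 to 9 leaving out a library (7 without that and homeostatic replicate 2 together). Among all genes DESeq2 called 731 of 13288 and the fit of all 27 libraries 1068 of 14655. The groups compared gave 3438 of 13467 genes, and 4086 of 13780 without fibrotic-like replicate 3.

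The changes of sign were all in Anxa2 and S100a10 values that had not been called. For Anxa2, leaving out a library gave -0.55 to 0.83 at fibrotic-like against homeostatic 1 week (0.83 without homeostatic replicate 2, 0.95 without it and fibrotic-like replicate 3, and 0.02 with at least 10 counts everywhere and 0.88 with limma), -0.13 to 0.03 at MM against HM-Wnt 2 weeks, -0.83 to 0.06 over time in fibrotic-like assembloids and -0.45 to 0.94 at homeostatic assembloids against MM HepOrgs. For S100a10 it gave -0.54 to 0.15 over time in homeostatic and -0.20 to 0.23 in fibrotic-like assembloids, -0.08 to 0.62 for the difference between them, and -0.13 to 0.32 at fibrotic-like assembloids against MM HepOrgs, where DESeq2 and RLE gave -0.00. With limma, S100a10 was -0.04 for MM over time, -0.02 for medium by time, 0.04 for fibrotic-like against homeostatic at 2.5 weeks and -0.38 for fibrotic-like over time.

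With a replicate block, Anxa2 was 0.09 for fibrotic-like against homeostatic at 1 week and S100a10 -0.05 for fibrotic-like against MM HepOrgs, both still not called. Members called against fresh hepatocytes, in either direction, were then 10, 9, 11 and 10 of 16, and 6 for MM against HM-Wnt at 2 weeks. Among all 13396 genes the block called 6954, 7198, 6072 and 5653 against fresh hepatocytes. Between the media at 2 weeks it called 2544 of 12989. Low counts in fresh hepatocytes limit the folds of S100a6 and S100a11, and 3 libraries per group limit every test.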
